A study of Mus musculus with 16 samples.

Results

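The 10 genes described here are expressed by the endothelial cells that line brain vessels or build and run the blood-brain barrier: Cldn5, Pecam1, Cdh5, Tek, Slco1a4, Abcb1a, Abcg2, Ly6c1, Esam and Mfsd2a. They were chosen by name, and each symbol was matched through the GENCODE M21 annotation to 1 row of a count table of 35328 genes. All 10 were found, and all 10 passed the count filter that left 17830 genes to test. The table comes from RNA-Seq of the dorsal hippocampus of 16 male C57Bl6/J mice. The 4 home cage water mice (HC_water) drank water and stayed in their cages. The 4 home cage caffeine mice (HC_Caffeine) had caffeine at 0.3 g/L in their drinking water for 2 weeks, which began at 8 to 9 weeks of age. The 4 learning water mice (MWM_water) and the 4 learning caffeine mice (MWM_Caffeine) had the same drinks and were killed 1 hour after the last of 3 training days in the Morris water maze, a pool in which a mouse learns the place of a hidden platform. No group swam without learning, so training, swimming and handling cannot be told apart. The tissue was whole dorsal hippocampus, in which fewer cells of a type and less RNA per cell cannot be told apart.

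Brain endothelial cells differ from those of other organs. Tight junctions seal the gaps between them, few vesicles cross them, and carriers and pumps in their membranes decide which nutrients enter the brain and which foreign compounds are sent back to the blood. Pericytes, astrocyte end-feet and Wnt signals from the surrounding tissue keep these features in place. The hippocampus depends on this layer for glucose, amino acids and long-chain omega-3 lipids, and several carriers of those nutrients are enriched in brain endothelium.

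Between 23078094 and 49949281 counts per mouse fell on genes, and the group medians ran from 30203502.5 in home cage water mice to 42497897.5 in learning caffeine mice. Values are given as CPM, a gene's counts per megacount of its library after edgeR's TMM scaling. The 10 genes had between 261 and 2299 counts in every library, so none was near 0 in any mouse. The 6 endothelial markers set for a check of the label (Cldn5, Pecam1, Cdh5, Tek, Flt1 and Slco1c1) were counted in all 16 mice. Their summed level lay between 160.3 and 214.6 CPM. All of them but Flt1 and Slco1c1 are members, so this check is not independent of the 10 genes. Markers of other cells that a dissection can carry were present as well. The sum of 11 choroid plexus markers ranged from 313.5 to 2408 CPM in home cage water mice, from 197.0 to 509.4 in home cage caffeine mice, from 167.1 to 443.8 in learning water mice and from 119.0 to 209.7 in learning caffeine mice. None of these 11 markers was at 0 in any library. The sum of 5 vascular smooth muscle markers, also never at 0, ranged over the same groups from 38.4 to 44.8, from 37.4 to 59.3, from 29.0 to 39.2 and from 30.3 to 54.8 CPM.

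Read per kilobase of exon, which allows a rough comparison of levels between genes, Cldn5 was the highest of the 10. The length used was that of all annotated exons merged, not of the transcripts present. Cldn5 encodes claudin-5, the main sealing protein of endothelial tight junctions, and lies on chromosome 16 from 18776847 to 18778262 (mm10) with 1 exon. Its level was 20.4 ± 4.34 CPM per kilobase (SD, n = 16 mice), and it exceeded Ly6c1, the next gene, in 16 of 16 mice with no overlap of their ranges. Below Cldn5 the order was less sharp. Ly6c1, a surface protein of brain endothelium anchored by a lipid, had 8.51 ± 1.41 CPM per kilobase (SD, n = 16). Mfsd2a, which carries lysophosphatidylcholine with bound docosahexaenoic acid into the brain, had 7.33 ± 1.37, and Slco1a4, an organic anion transporter, had 7.14 ± 0.77 CPM per kilobase (SD, n = 16 each). Ly6c1 was above Mfsd2a in 11 of 16 mice and Mfsd2a above Slco1a4 in 8 of 16, so these neighbours did not differ beyond their spread.

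The junction adhesion molecule Esam had 4.97 ± 0.71 CPM per kilobase and the drug efflux pump Abcb1a (P-glycoprotein) 3.98 ± 0.50 (SD, n = 16 each). Pecam1, an adhesion molecule of all endothelial cells, had 2.94 ± 0.25 CPM per kilobase, and the angiopoietin receptor Tek had 2.81 ± 0.38. The lowest levels per kilobase were those of Cdh5 (VE-cadherin, the adhesion protein of endothelial adherens junctions) at 2.39 ± 0.31 and Abcg2 (the breast cancer resistance protein, a second drug efflux pump) at 2.22 ± 0.23 (SD, n = 16 each). In CPM, Abcg2 was above Cdh5 (means of 18.1 and 10.0), but its merged exons are longer (8153 against 4203 bases). Each gene in this lower stretch of the order was above the next in 11 to 15 of 16 mice, and the ranges of all these neighbours overlapped. Within a gene, the spread over the 16 mice was smallest for Pecam1, with a coefficient of variation of 8.52%, and largest for Cldn5, with 21.3%.

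**Figure D1:**
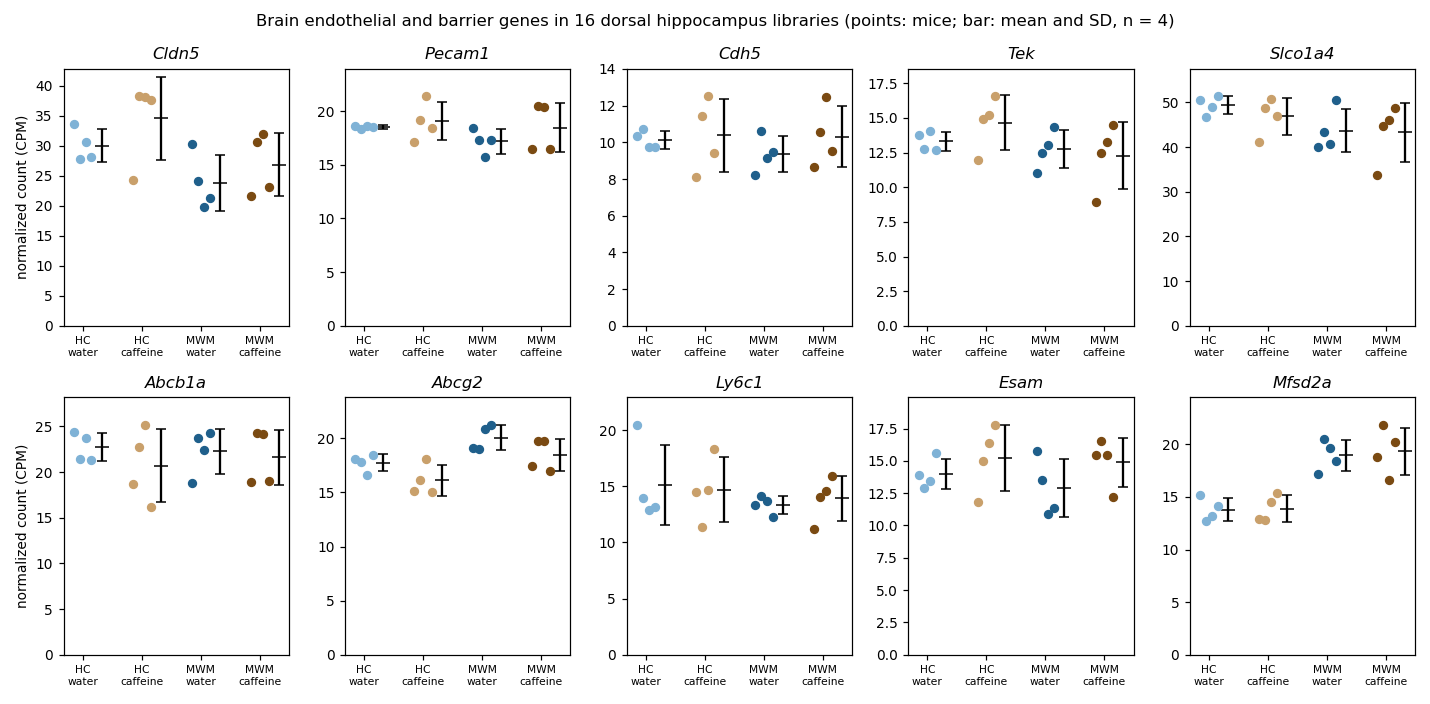
Normalized count (CPM, vertical axis from 0) of each of the 10 genes in the 16 mice, by group (HC, home cage; MWM, Morris water maze). Points are mice, and bars give the mean and SD of 4 mice. For Mfsd2a, all home cage values lie below all learning values of the same drink, under both drinks. Of all tested genes, 6.99% did not overlap under water and 10.9% under caffeine, in either direction.

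Several members have close relatives to which short reads could in principle be assigned. The relative of Ly6c1, Ly6c2, had 24 counts in all 16 libraries together, and Slco1a1, Slco1a5, Slco1a6 and Slco1b2, the neighbours of Slco1a4, had 3, 110, 11 and 155. Abcb1b, the second mouse gene for P-glycoprotein, was measured at 3.37 to 5.82 CPM. The adhesion genes lie in mm10 on chromosome 11 from 106654217 to 106750628 (Pecam1, minus strand), on chromosome 8 from 104101625 to 104144511 (Cdh5, plus strand) and on chromosome 9 from 37528078 to 37538319 (Esam, plus strand). Tek lies on chromosome 4 from 94739289 to 94874976 (plus strand) and Ly6c1 on chromosome 15 from 75044018 to 75048830 (minus strand). Slco1a4 lies on chromosome 6 from 141805440 to 141856199 (minus strand) and Abcb1a on chromosome 5 from 8660077 to 8748575 (plus strand). Of the 10 genes, only Cdh5 and Abcb1a overlap other annotated genes. The antisense gene over Cdh5 had 2 counts in all, and the 2 genes over Abcb1a, which share 553 exon bases with it, had 71.

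Mfsd2a was the member that differed most between learning and home cage mice, and it was higher in learning mice under both drinks. It lies on chromosome 4 from 122946850 to 122961188 (mm10, minus strand, 15 merged exons). Besides carrying lipid, it keeps the rate of vesicle transport across brain endothelium low. The home cage water mice had 15.2, 12.7, 13.2 and 14.1 CPM (replicates 6, 8, 11 and 20), and the home cage caffeine mice had 12.9, 12.8, 14.5 and 15.3 (replicates 2, 9, 14 and 17). The learning water mice had 17.2, 20.5, 19.7 and 18.4 CPM (replicates 24, 33, 36 and 38), and the learning caffeine mice had 18.8, 21.8, 16.6 and 20.2 (replicates 22, 27, 30 and 40). Within each drink the highest home cage mouse was therefore below the lowest learning mouse. Groups without overlap, in either direction, were found for 6.99% of all tested genes under water and 10.9% under caffeine.

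Under water, Mfsd2a rose from 13.8 ± 1.10 CPM in the 4 home cage mice to 19.0 ± 1.45 CPM (SD) in the 4 learning mice, by 0.46 on the log2 scale with a 95% interval of 0.28 to 0.64. Its adjusted p was 0.0393 in edgeR's quasi-likelihood test with Benjamini-Hochberg adjustment over the 17830 genes, in which a gene is called at an adjusted p under 0.1. Mfsd2a was the 1 member called in this comparison, against 0.97% of all tested genes. Of 16 refits that each dropped 1 mouse, 4 lost this call (home cage water replicates 11 or 20, learning water replicates 33 or 36), with an adjusted p of up to 0.132 and a log2 fold change never below 0.42.

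Under caffeine, Mfsd2a rose from 13.9 ± 1.25 CPM in the 4 home cage mice to 19.4 ± 2.23 CPM (SD) in the 4 learning mice, by 0.48 on the log2 scale with a 95% interval of 0.30 to 0.65 (edgeR, adjusted p = 0.0122). It was again the 1 member called, against 5.28% of all tested genes, and all 16 refits called it. In an exact two-sided permutation test of its CPM the p was 0.0286 under either drink, the smallest that 4 mice against 4 can give. The difference between the 2 learning responses was 0.02 on the log2 scale (95% interval -0.24 to 0.27). No member was called for that difference in edgeR, and 0% of all tested genes were. An unadjusted p under 0.05 was found for 3.63% of all genes and for no member, and DESeq2 called 0.0393% of all genes and no member. Home cage water replicate 20, the library with the highest choroid plexus markers, and home cage caffeine replicate 17, which stood apart from its group, were left out together after the data had been seen. Without them the log2 fold changes of Mfsd2a were 0.47 and 0.53 and both calls held. Learning water replicate 24 stood apart from its group as well. Its sum of oligodendrocyte markers was 9826.6 CPM, against 4944.2 CPM in replicate 33, the next of its group. It was left out only on its own, and both calls of Mfsd2a held without it.

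The promoter of Mfsd2a is shown because it is the member with a call under both drinks. The RefSeq promoter table of build GRCm38.p6 holds a window of 250 bases before and 50 after the start of 7 of the 10 genes. In the sequences below, read 5′ to 3′, capitals mark matches on either strand to AGGAAG (an ETS site), ACAAAG (SOX), CTTTGAT (TCF/LEF), TGACGTCA (the cyclic AMP response element), TGANTCA (AP-1), GGGCGG (SP1) or CCAAT, the last added after the sequences had been seen. The window of Mfsd2a, chr4:122961139-122961438 on the minus strand, has 60.3% G and C and 22 CpG dinucleotides, and of the motifs it holds 1 CCAAT box, read from the other strand as ATTGG.
Mfsd2a: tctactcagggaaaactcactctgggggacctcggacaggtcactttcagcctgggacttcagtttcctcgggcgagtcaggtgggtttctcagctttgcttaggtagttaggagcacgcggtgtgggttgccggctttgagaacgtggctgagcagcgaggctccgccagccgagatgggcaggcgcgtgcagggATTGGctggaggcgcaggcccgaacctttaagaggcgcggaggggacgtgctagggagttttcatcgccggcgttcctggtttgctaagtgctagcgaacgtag
Of all 32851 promoters in the table, 37.4% hold CCAAT, as did 5 of the 10 windows of the 7 members.

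Cldn5 and Abcg2 were called in addition when the responses of both drinks were averaged over the 16 mice. The 3 members called in that comparison stand against 14.5% of all tested genes. Mfsd2a, the third, had an average learning response of 0.47 (95% interval 0.34 to 0.60; edgeR, adjusted p = 4.43e-04). Abcg2 lies on chromosome 6 from 58584523 to 58695676 (mm10, plus strand). It had 18.1, 17.8, 16.6 and 18.5 CPM in home cage water mice and 19.1, 19.0, 20.9 and 21.2 in learning water mice, in the replicate order given above. It had 15.15, 16.2, 18.1 and 15.01 CPM in home cage caffeine mice and 17.4, 19.8, 19.7 and 16.9 in learning caffeine mice. All learning water mice were above all home cage water mice. Abcg2 and Mfsd2a were the 2 members without overlap in this comparison, against 6.99% of all tested genes. For Abcg2 the caffeine groups overlapped through home cage replicate 14. Mfsd2a was the 1 member whose caffeine groups did not overlap, against 10.9% of all tested genes.

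The average learning response of Abcg2 was 0.19 on the log2 scale (95% interval 0.08 to 0.29; edgeR, adjusted p = 0.0403), and all 16 refits called it. Within a drink the log2 fold changes were 0.17 under water (edgeR, adjusted p = 0.372) and 0.20 under caffeine (adjusted p = 0.167), and neither passed the test. Leaving out home cage caffeine replicate 14 brought the latter to 0.27 with an adjusted p of 0.0682.

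Cldn5 went the other way. It had 33.7, 27.75, 30.7 and 28.2 CPM in home cage water mice and 30.3, 24.1, 19.7 and 21.3 in learning water mice. Under caffeine it had 24.3, 38.3, 38.15 and 37.7 CPM in home cage mice and 21.6, 30.6, 32.04 and 23.2 in learning mice. The groups overlapped under both drinks, and home cage caffeine replicate 2 stood well below the other mice of its group.

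The average learning response of Cldn5 was a fall by 0.34 on the log2 scale (95% interval -0.56 to -0.13; edgeR, adjusted p = 0.0654). This call was the least stable of the 3: 7 of the 16 refits held it, and it was lost without home cage water replicates 6 or 11, home cage caffeine replicates 9 or 17, learning water replicates 33, 36 or 38, or learning caffeine replicates 22 or 40, where the adjusted p reached 0.130. It was also lost, at an adjusted p of 0.148, when home cage water replicate 20 and home cage caffeine replicate 17 were left out together. Within a drink the log2 fold changes were -0.33 under water (adjusted p = 0.436) and -0.36 under caffeine (adjusted p = 0.226), which did not pass edgeR's test. Without home cage caffeine replicate 2, the caffeine value was -0.48 with an adjusted p of 0.0901.

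The promoters of these 2 genes are shown for comparison with that of Mfsd2a. The window of Cldn5 is chr16:18776597-18776896 on the plus strand, with 58.3% G and C, 2 CCAAT boxes and 1 SP1 site. RefSeq lists 3 starts for Abcg2, and gene counts do not tell which was used. The one printed, chr6:58640296-58640595 on the plus strand, is the richest in CpG dinucleotides (28) and holds 1 ETS site, 4 SP1 sites and the cyclic AMP response element.
Cldn5: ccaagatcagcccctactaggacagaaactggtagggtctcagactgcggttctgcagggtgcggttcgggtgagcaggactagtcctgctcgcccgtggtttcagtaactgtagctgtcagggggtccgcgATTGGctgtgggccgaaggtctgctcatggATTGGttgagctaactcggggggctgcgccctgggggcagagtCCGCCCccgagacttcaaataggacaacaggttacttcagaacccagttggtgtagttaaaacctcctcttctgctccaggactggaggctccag
Abcg2: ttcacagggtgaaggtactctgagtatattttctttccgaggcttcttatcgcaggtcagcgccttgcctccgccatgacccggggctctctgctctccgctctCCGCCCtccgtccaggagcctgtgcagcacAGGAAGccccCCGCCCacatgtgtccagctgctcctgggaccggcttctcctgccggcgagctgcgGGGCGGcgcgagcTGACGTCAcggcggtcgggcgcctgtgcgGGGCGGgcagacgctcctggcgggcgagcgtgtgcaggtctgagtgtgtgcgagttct
Among all promoters of the table, 1.79% hold the cyclic AMP response element, 35.4% the ETS letters and 35.7% the SP1 letters. Of the 10 windows of the 7 members, 6 held the ETS letters, 3 the SP1 letters, 1 the cyclic AMP response element and 3 the SOX letters (18.7% of all promoters). None held the TCF/LEF or AP-1 letters (3.73% and 7.81% of all promoters). The windows are not independent, since 3 belong to Abcg2 and those of Ly6c1 overlap. By gene, 4 of the 7 held the ETS letters, 2 SP1, 1 the cyclic AMP response element and 3 SOX. The window of Abcb1a (chr5:8566841-8567140) lies far upstream of the gene start given above.

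The other 7 members did not pass the test in any comparison with learning. Among the general endothelial genes, Tek had an average learning response of -0.16 on the log2 scale (edgeR, adjusted p = 0.282), Pecam1 -0.08 (0.458) and Cdh5 -0.06 (0.730). Esam, whose protein sits in the same cell contacts that claudin-5 seals, had -0.07 (0.672). Among transporters and surface proteins, Slco1a4 had -0.15 (0.200), Ly6c1 -0.13 (0.478) and Abcb1a 0.02 (0.914). The intervals of these 7 genes do not show that they were unaltered: the median standard error of a member in this comparison was 0.09 on the log2 scale. Of the 10 values, 7 were below 0 and the median member was at -0.07, beside a median of -0.01 over all 17830 tested genes, 54.0% of which were below 0.

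**Figure D2:**
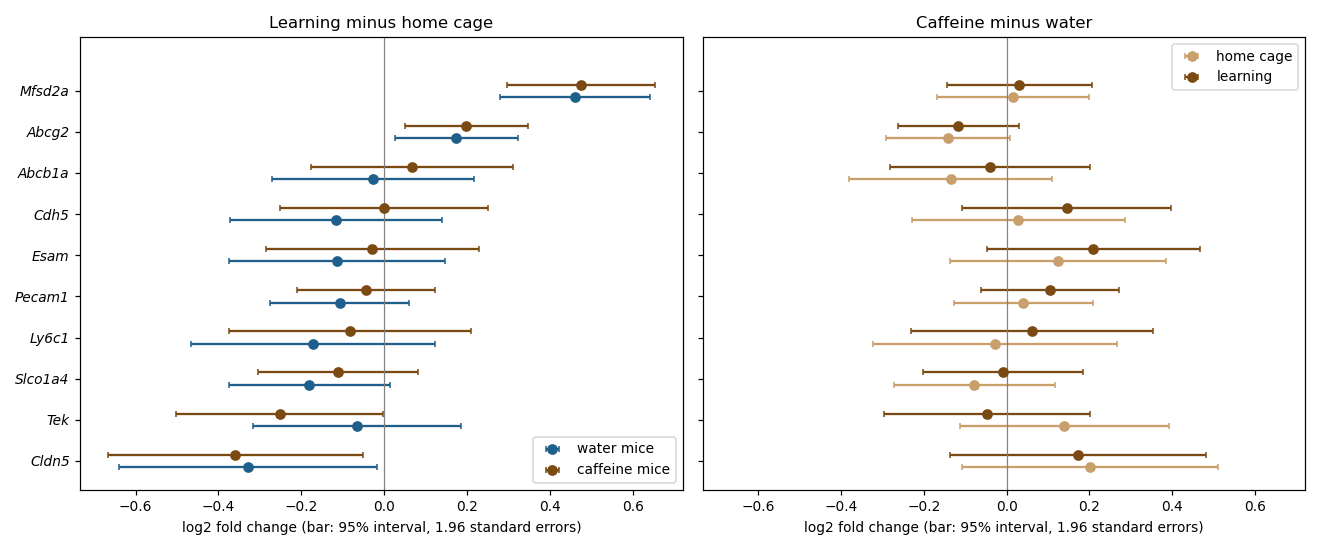
Log2 fold changes of the 10 genes (horizontal axis; bars, 95% intervals from 1 edgeR model of 16 mice) for learning minus home cage (left) and caffeine minus water (right). On the left, Mfsd2a lies near 0.46 and 0.48 under the 2 drinks and Cldn5 near -0.33 and -0.36, while on the right the values lie between -0.14 and 0.21.

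Caffeine at rest was not followed by a change in any member that passed the test. No member was called in home cage caffeine against home cage water mice, and 0% of all tested genes were called (3.57% had an unadjusted p under 0.05, with no member among them). DESeq2 called 0.107% of all genes and no member. The members' log2 fold changes ranged from -0.14 for Abcg2 to 0.20 for Cldn5, with a median of 0.02. The 95% intervals of the 10 genes together spanned -0.38 to 0.51, so a change of Cldn5 by up to 0.51 on the log2 scale was within its interval.

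After training, caffeine against water gave the same count of 0 members and 0% of all genes in edgeR (3.93% had an unadjusted p under 0.05, with no member among them), and DESeq2 called 0.0393% of all genes and no member. The values ranged from -0.12 for Abcg2 to 0.21 for Esam (adjusted p = 0.999), with a median of 0.05. Averaged over both conditions, again no member and 0% of all genes were called in edgeR, and DESeq2 called 0.0841% of all genes and no member. Abcg2 was the 1 member with an unadjusted p under 0.05 there, against 4.07% of all tested genes, and its log2 fold change of -0.13 had an adjusted p of 0.985 in edgeR. Mfsd2a differed little between the drinks: its average caffeine effect was 0.02 with a 95% interval of -0.10 to 0.15. The caffeine and learning comparisons share groups of mice, so their values are not independent.

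Whether a member moved with the endothelium as a whole or apart from it was described with 24 other endothelial genes, none of them a member. The level of each gene was set against the mean of these 24 in the same library, on the log2 scale. On this relative scale Mfsd2a was at 0.42 ± 0.11 in home cage water and 0.99 ± 0.12 in learning water mice, and at 0.38 ± 0.12 in home cage caffeine and 0.92 ± 0.25 in learning caffeine mice (SD, n = 4 each). The learning and home cage mice of each drink did not overlap, narrowly under caffeine (lowest learning mouse 0.554, highest home cage mouse 0.548), where learning replicate 30 stood below the other 3 mice. On the same relative scale 16.5% of all tested genes did not overlap under water and 3.33% under caffeine.

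Abcg2 was likewise higher relative to the endothelial mean in learning mice. Its relative level was 0.79 ± 0.08 in home cage water and 1.08 ± 0.12 in learning water mice, and 0.59 ± 0.18 in home cage caffeine and 0.85 ± 0.05 in learning caffeine mice (SD, n = 4 each). The learning mice lay above the home cage mice without overlap under both drinks, with the shares of all genes just given. The learning caffeine mice lay below the learning water mice without overlap, as did 3.67% of all tested genes in either direction, whereas the home cage caffeine and home cage water mice overlapped (1.02% of all tested genes did not). Cldn5 had relative levels of 1.54 ± 0.12, 1.31 ± 0.24, 1.67 ± 0.16 and 1.38 ± 0.18 in the same order of groups, with overlap in every comparison. Each of the other 7 genes had overlapping groups between learning and home cage mice of either drink. These relative levels were not tested.

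**Figure D3:**
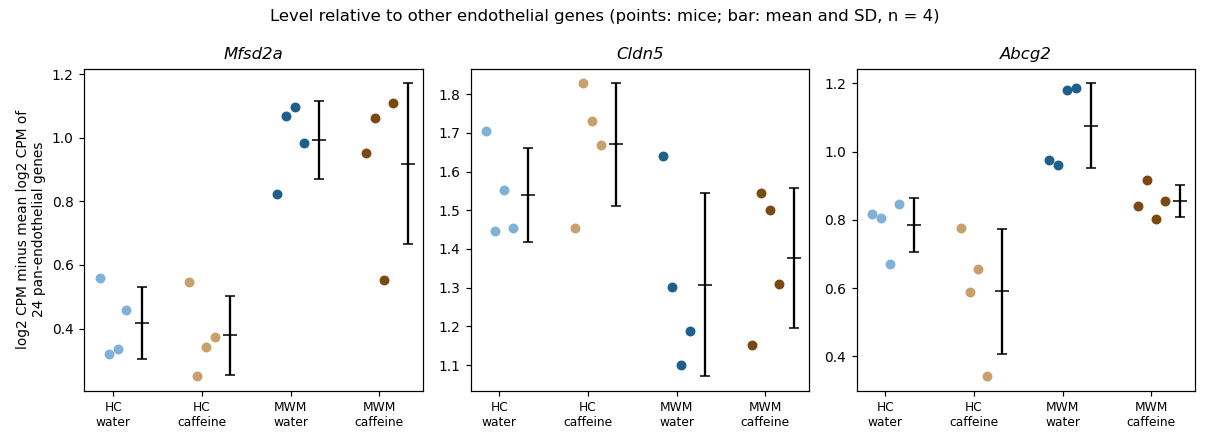
Log2 CPM of Mfsd2a, Cldn5 and Abcg2 minus the mean log2 CPM of 24 other endothelial genes in the same library (vertical axis, not from 0), by group. Points are mice, and bars give the mean and SD of 4 mice. Mfsd2a and Abcg2 lie higher in learning than in home cage mice of each drink, and Cldn5 overlaps.

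In the average learning response 7.81% of all tested genes were called higher and 6.71% lower, and the counts of the lists below stand against these shares and the 14.5% called in all. Calls within a drink stand against 0.97% of all tested genes under water and 5.28% under caffeine. Of the 24 pan-endothelial genes 3 were called, all lower, a share near that of all genes: Podxl (podocalyxin, a sialomucin of the luminal surface) at -0.27, Egfl7 at -0.23 and Clec14a at -0.36 (edgeR, adjusted p = 0.0513, 0.0702 and 0.0998). Of the 16 refits, 13 called Podxl, 8 Egfl7 and 3 Clec14a, and Podxl alone was called without home cage water replicate 20 and home cage caffeine replicate 17. The list's median was -0.10, beside -0.01 over all tested genes, and 17 of 24 values were below 0. Their summed level ranged from 393.8 to 411.6 CPM in home cage water, 336.9 to 442.8 in home cage caffeine, 355.5 to 387.6 in learning water and 369.2 to 424.3 CPM in learning caffeine mice.

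Of 12 other genes of the junctions, 3 rose, 2 fell and 7 did not pass the test in the average learning response. Occludin (Ocln, a membrane protein of tight junctions) rose by 0.24 on the log2 scale, and the scaffold proteins Tjp1 (ZO-1) and Afdn (afadin) rose by 0.19 and 0.17 (edgeR, adjusted p = 0.0841, 0.0337 and 0.0337). F11r (the junctional adhesion molecule JAM-A) fell by 0.24 and Cgnl1 (paracingulin, a junction adaptor) fell by 0.39 (adjusted p = 0.0465 and 0.0612). Ocln was called in 8 and Cgnl1 in 10 of the 16 refits, and the other 3 in 15 or 16. Without the 2 home cage mice, Tjp1 was the 1 junction gene still called. Cgnl1 was also called in learning water against home cage water mice, at -0.78 (edgeR, adjusted p = 0.0641; 0.166 without those mice). Tjp1, Afdn and Ocln are expressed by many cell types of the hippocampus, which bulk counts cannot separate from endothelium.

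Of 18 carriers and receptors that bring nutrients across the barrier, 3 were called higher, 3 lower and 12 not at all. Their summed level lay between 1058.2 and 1182.8 CPM, and bulk counts cannot tell how much of it came from endothelium. The glucose transporter Slc2a1 (GLUT1) rose by 0.24, the large neutral amino acid transporter Slc7a5 (LAT1) by 0.22 and the cationic amino acid transporter Slc7a1 by 0.14 on the log2 scale (edgeR, adjusted p = 0.0390, 0.0403 and 0.0538). The 2 proteins of iron transfer, the transferrin receptor Tfrc and the iron exporter Slc40a1 (ferroportin), fell by 0.21 and 0.23, and the taurine transporter Slc6a6 fell by 0.19 (adjusted p = 0.0105, 0.0259 and 0.0300). In learning caffeine against home cage caffeine mice alone, Slc7a5 was called at 0.40 and Tfrc, Slc40a1 and Slc6a6 at -0.22, -0.36 and -0.28 (edgeR, adjusted p = 0.0256, 0.0800, 0.0308 and 0.0507). The share of all tested genes called there was 5.28%. The call of Tfrc under caffeine held in 6 of the 16 refits. Without the 2 home cage mice, that call and the one of Slc7a1 were lost, and the other calls of carriers held. In edgeR no carrier was called under water, and no gene was called for the difference between the learning responses of the 2 drinks.

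Among 6 further efflux pumps only Abcb1b was called. The summed level of the 6 lay between 545.4 and 703.2 CPM, of which Abcb1b made up 3.37 to 5.82 CPM. Bulk counts cannot tell how much of this sum came from endothelium. Abcb1b fell by 0.27 (edgeR, adjusted p = 0.0736, called in 5 of the 16 refits), while its near copy Abcb1a, a member, had 0.02. Of 8 genes of vesicle transport and fenestration, Cavin2 rose by 0.23, and Cavin1 (the main coat protein of caveolae) and Plvap (the diaphragm protein of fenestrated vessels, such as those of the choroid plexus) fell by 0.23 and 0.31 (adjusted p = 0.0513, 0.0823 and 0.0850). Cavin1 and Plvap were each called in 5 of the 16 refits. Cavin2 was also called under caffeine alone, at 0.34 (edgeR, adjusted p = 0.0658). None of these calls, Abcb1b included, held without the 2 home cage mice.

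The regulators of the barrier programme gave 1 higher and 3 lower genes of 15. Klf4, a transcription factor that endothelium raises under flow and many cells raise on stimulation, rose by 0.45 (edgeR, adjusted p = 0.0468). Reck, part of the receptor complex for Wnt7 on brain endothelium, fell by 0.27, the Wnt target Apcdd1 by 0.28 and the transcription factor Foxq1 by 0.31 (adjusted p = 0.0133, 0.0277 and 0.0929). Reck was also called under water alone, at -0.38 (edgeR, adjusted p = 0.0658), and Ets1 under caffeine alone, at -0.28 (adjusted p = 0.0970). Foxq1 and Ets1 were each called in 2 of the 16 refits. Without the 2 home cage mice, the average responses of Klf4, Reck and Apcdd1 were still called, and Foxq1, Ets1 and the water response of Reck were not. The 8 arterial genes and the 5 tested genes of veins and leukocyte adhesion gave no call, with medians of -0.01 and -0.06. No list had a call in edgeR for caffeine against water in either condition.

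**Figure D4:**
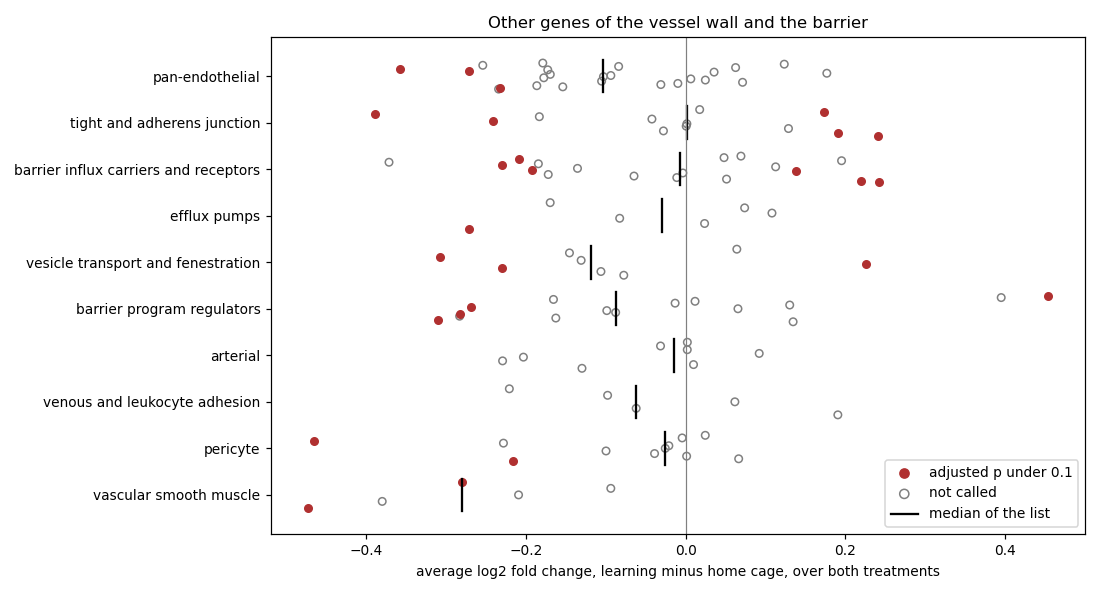
Average learning response (log2 fold change over both drinks, horizontal axis) of the tested genes of 8 vessel and barrier lists and 2 lists of mural cell markers. Filled points have an adjusted p under 0.1 in edgeR, open points do not, and the black line is the median of the list, which lies between -0.28 for smooth muscle and 0.00 for junction genes.

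Some markers of the cells around the endothelium were also called for learning, and their part in the results above was not tested. Of 5 smooth muscle markers, Acta2 fell by 0.47 and Myl9 by 0.28 in the average learning response (edgeR, adjusted p = 0.0638 and 0.0348), and the median of the 5 was -0.28 (9 of the 16 refits called Acta2, and neither was called without the 2 home cage mice). Of 11 pericyte markers, Ndufa4l2 fell by 0.47 and Pdgfrb by 0.22 (adjusted p = 0.0226 and 0.0212), with a median of -0.03. The choroid plexus markers fell most: 10 of 11 were called in the average learning response and 6 of 11 in learning water against home cage water mice, with medians of -1.26 and -1.90. Of all tested genes, 14.5% and 0.97% were called in these 2 comparisons. Without the 2 home cage mice, 8 and 1 of the calls of these markers held. For caffeine at rest none of the 11 was called in edgeR, all 11 were below 0 and the median was -2.15. In learning caffeine against home cage caffeine mice none of the 11 was called in edgeR, 10 of 11 were below 0 and their median was -0.61. The median sum of these markers was 1067.8 CPM in home cage water and 250.01 CPM in home cage caffeine mice. It was 318.7 CPM in learning water and 167.9 CPM in learning caffeine mice. Whether the choroid plexus content of a dissection bears on the response of Mfsd2a was not tested.

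Among the remaining marker lists, the astrocyte gene Gfap and the microglial genes C1qa and Cx3cr1 fell in the average learning response, by 0.25, 0.20 and 0.19 (edgeR, adjusted p = 0.0121, 0.0439 and 0.0130), and C1qa was not called without the 2 home cage mice. None of the 5 red blood cell, 6 fibroblast and meningeal, 4 perivascular macrophage, 5 oligodendrocyte or 6 neuronal markers was called in that comparison.

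Across mice, the 10 genes did not form a single block. Over the 45 pairs the median Pearson r of log2 CPM in the 16 libraries was 0.18, with 31 pairs above 0, and for deviations from group means it was 0.30, with 39 pairs above 0. These are descriptions without a test, since all points share their libraries, scaling and tissue dissections. The closest pairs were Cldn5 with Pecam1 (r = 0.84, Spearman's rho = 0.87) and Tek with Slco1a4 (r = 0.83, rho = 0.67). Abcb1a and Abcg2, the 2 drug efflux pumps, had r = 0.60 over all libraries and 0.74 within groups. Mfsd2a had 3 of 9 positive partners over all libraries (median r = -0.13) and 8 of 9 within groups (median 0.06), where the highest was Ly6c1 with 0.53.

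**Figure D5:**
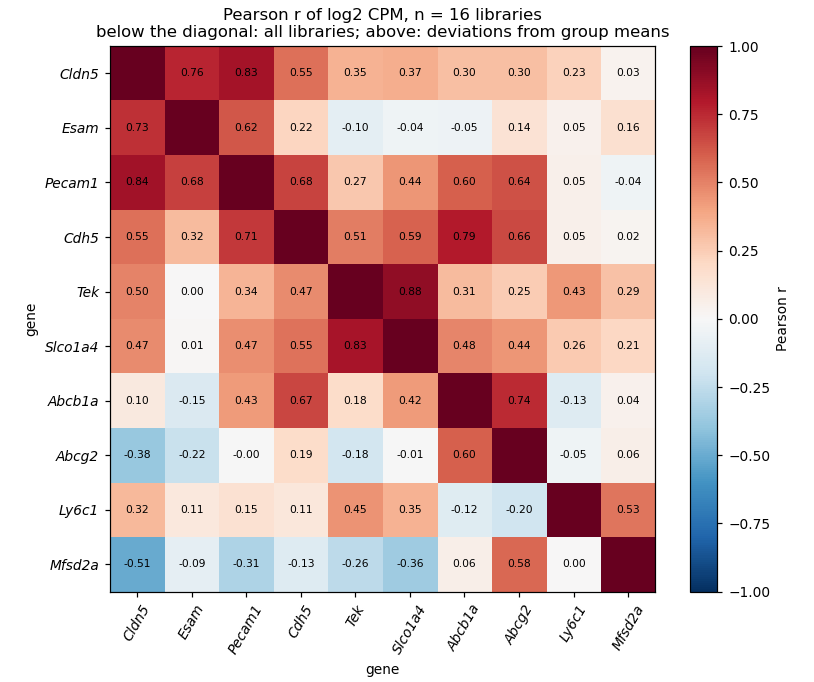
Pearson r of log2 CPM between the 10 genes over 16 libraries (colour and printed value). Below the diagonal all libraries are used as they are, and above it each group's mean was removed. The pairs Cldn5 with Pecam1 (0.84) and Tek with Slco1a4 (0.83) are the closest, and the row of Mfsd2a runs from -0.51 with Cldn5 to 0.58 with Abcg2.

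The mouse with the lowest mean z score of the 10 genes was learning caffeine replicate 22 (-1.03), followed by home cage caffeine replicate 2 (-0.96), and the highest was home cage caffeine replicate 14 (0.89). The extremes therefore lay in the caffeine groups, whereas the home cage water mice lay between -0.16 and 0.55. The 6 other genes whose log2 CPM was most like this mean over the 16 libraries, out of 13355, were Gnb1l, Gpsm1, Amz1, Swap70, Cobl and the endothelial phosphatase gene Ptprb, with r from 0.84 to 0.79. After removal of group means they were Fjx1, Cadm1, Gnb1l, Gpsm1, Swap70 and Vstm2b, with r from 0.87 to 0.84. One of these, Ptprb, belongs to the endothelial list.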

How the data were processed

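RNA-Seq of the dorsal hippocampus of 16 mice, 4 per group, gave 1 deposited table of raw read counts per Ensembl gene, 1 column a mouse. The authors normalized counts across libraries for their own tests, but the deposited counts are not normalized. From stranded mRNA libraries read over 50 bases at one end, the authors aligned with STAR and Bowtie 2 (mm10), retained uniquely placed reads and counted with HTSeq 0.6.1p1 on Ensembl release 90. The strand setting of that counting is not given in the sources used here. Reads without molecular identifiers are not independent molecules, and p-values measure the spread between mice.

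Genes were matched to GENCODE M21 (81 had no match). Counts were TMM-scaled and tested in R 4.3.3 with edgeR 4.0.16 (filterByExpr, a mean per group, quasi-likelihood test, Benjamini-Hochberg adjustment over 17830 genes, threshold 0.1). The 7 comparisons were the caffeine effect at rest and after training, the learning response for either drink, the difference of those responses and the 2 averages. Log2 CPM used a prior count of 2. Each 95% interval is the log2 fold change with 1.96 standard errors on either side, a normal approximation. The standard error was derived from the F statistic of edgeR's test. These intervals are narrower than that test implies. For Cldn5 under water the interval was -0.64 to -0.02, although edgeR's unadjusted p was 0.0533. Counts were simulated for learning against home cage under caffeine (17635 genes tested in all), with log2 changes of 0.5 or 1 in either direction. Of 200 altered genes, 181 were found by edgeR beside 23 false calls, and 185 beside 47 by DESeq2 1.42.0. Of the 100 altered by 0.5, edgeR found 83 and DESeq2 88. Changes below 0.5, such as those of Cldn5 and Abcg2, were not simulated, so these shares do not apply to them. Alternatives were DESeq2, its size factors, edgeR on 8 libraries, 2 other count filters, robust empirical Bayes, a threshold of 0.05, a prior count of 0.5, the endothelial list without Flt1 and Kdr, leave-one-out refits and, added later, 2 mice left out together.

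The members and gene lists were chosen with earlier results of these data known. Named were all members, up to 6 called genes per list (otherwise at most the 2 of smallest p) and the 6 genes most like the members' mean by either measure.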

Additional observations from a re-analysis of the deposited data

Results flagged for a closer look

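In 40 groups of 4 mice (10 genes in 4 groups), 2 had a mouse far from the other 3 by Dixon's test at its 95% critical value, where chance flags about 1 in 20 groups. Cldn5 was at 24.3 CPM in home cage caffeine replicate 2, against 37.7 CPM in the nearest mouse of its group. The same mouse had the lowest sum of the 6 endothelial check markers (160.3 CPM), which include Cldn5 itself. It also had the lowest sum of the 24 pan-endothelial genes (336.9 CPM), none of them a member. Ly6c1 was at 20.4 CPM in home cage water replicate 6, against 13.9 CPM in the nearest mouse. Neither Ly6c1 nor the Cldn5 value for caffeine at rest was called with or without these mice.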

How the results depend on the processing

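No paired analysis was possible because the replicate numbers of the 4 groups are all different. Over the 16 leave-one-out refits, the count of members called ranged from 0 to 1 in learning water against home cage water mice and from 1 to 2 in learning caffeine against home cage caffeine mice (Mfsd2a, with Cldn5 or Abcg2 added); the counts in the other 5 comparisons stayed within 1.5 times. The average learning response of Cldn5 (-0.34, adjusted p = 0.0654) did not pass a threshold of 0.05. Values near 0 changed sign. With 2 home cage mice left out together, the average learning response was -0.043 for Abcb1a and 0.0039 for Esam, the caffeine effect of Mfsd2a at rest -0.024, and the difference between learning responses 0.054 for Cldn5 and -0.023 for Abcg2. With single mice left out, the average learning response ranged from -0.11 to 0.00030 for Cdh5 and from -0.028 to 0.080 for Abcb1a. The caffeine effect of Mfsd2a ranged from -0.033 to 0.064 at rest, from -0.031 to 0.10 after training and from -0.0063 to 0.060 on average. The difference between learning responses ranged from -0.049 to 0.083 for Mfsd2a, from -0.17 to 0.11 for Cldn5 and from -0.011 to 0.088 for Abcg2. None of these values was called in any fit, and the cause of the sign changes was not tested. Of the 56 calls of list genes, 0 changed sign in these refits (those on 8 libraries apply to the 17 calls within a drink); with other settings 338 refits passed the threshold and 71 did not, and with 1 mouse left out 693 did and 203 did not. With the 2 home cage mice left out together, 28 of the 56 calls were lost. DESeq2 called 2.39% of all genes in learning water against home cage water mice (edgeR 0.97%) and 8.87% under caffeine (edgeR 5.28%). The spread between 4 mice limits these results, since the standard error of a member between 2 groups was typically near 0.13 (median, log2).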

Other observations

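The 6 genes whose log2 CPM over the 16 libraries was most like that of Mfsd2a, looked up after its values had been seen, were Cables1, Slc25a25, Xdh, Per1, Fam220a and Ip6k2 (r from 0.91 to 0.89; the points share their libraries and the learning groups). Per1, a period gene of the circadian clock that many stimuli induce, rose by 0.58 ± 0.07 (standard error) on the log2 scale in the average learning response (edgeR's quasi-likelihood test, adjusted p = 7.51e-05). Xdh, xanthine dehydrogenase, rose by 0.54 ± 0.09 (adjusted p = 2.24e-03), and Cables1 by 0.50 ± 0.07 (adjusted p = 3.97e-04). Fam220a, Ip6k2 and Slc25a25 rose less, by 0.27 ± 0.03, 0.25 ± 0.03 and 0.20 ± 0.04 (standard errors). Because Mfsd2a itself differed with learning, a learning difference was built into the choice of these genes. Their p-values are therefore no independent result.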
